A study of Mus musculus with 13 samples.

Results

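The fibroblast growth factor homologous factors (FHFs) are the products of 4 genes, Fgf11, Fgf12, Fgf13 and Fgf14, and all 4 were found by symbol among the 32285 genes of the count matrices, with 1 row each. They were described here in nuclei of the mouse hippocampus, across cell classes and across 4 groups of female C3B6F1 hybrid mice (spelled C3HB6F1 in some labels). Each of 13 mice gave 1 single-nucleus RNA library. The groups were 3 mice aged 5 months fed ad libitum (young AL), 3 mice aged 24 months fed ad libitum (old AL, numbered 1, 2 and 4), 3 mice aged 24 months that had been under dietary restriction from 20 months (acute restriction) and 4 mice aged 24 months that had been restricted from 5 months (long-term restriction). No label named a mutation or transgene in any group. The comparisons ask how age and the 2 restriction schedules relate to expression in each cell class, with old AL as the reference for both schedules. The genes were proposed with an ageing difference of Fgf12 in view and with levels across classes known, so values by class and by age are given below as description. The number of ageing calls is given beside its background, and nothing is read from it.

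FHFs belong to the fibroblast growth factor family by sequence but are not secreted, and they do not activate fibroblast growth factor receptors. They bind the cytoplasmic tails of voltage-gated sodium channels, gather with them at the axon initial segment and shift the voltage dependence and speed of channel inactivation, which sets how readily and how repeatedly a neuron fires. Alternative first exons give each gene several N-termini with different effects on the channel, and variants of FGF14 are a known cause of a spinocerebellar ataxia.

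All 4 genes lie on the minus strand, and 3 of them are long. Fgf11 (ENSMUSG00000042826) spans 5.8 kb at chr11:69796068-69801857 of GRCm38, of which 52.6% is exonic. Fgf12 (ENSMUSG00000022523) spans 593.0 kb at chr16:28160098-28753068, with 1.05% of it exonic. Fgf13 (ENSMUSG00000031137) spans 505.9 kb at chrX:59062145-59568071. Fgf14 (ENSMUSG00000025551) spans 699.2 kb at chr14:123977907-124677127. The annotation (GENCODE M21) lists 2, 6, 9 and 2 transcripts for Fgf11, Fgf12, Fgf13 and Fgf14. A count for a gene pools all of its transcripts, so no isoform was measured. Whether intronic reads were counted is not given in the sources used here. Fgf14 overlaps 2 genes of the matrices on the opposite strand, Gm28932 and 1700024B18Rik, and use of strand in counting is likewise not given, so reads from these partners cannot be told apart from Fgf14.

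Because Fgf12 differed between neuron types and with age below, and its counts pool several starts, the 300 bases around its most distal start and its most proximal start in RefSeq (GRCm38.p6) are shown. Each runs 5′ to 3′ on the minus strand from 250 bases before the start, and capitals mark each CG.
Fgf12 distal start, chr16:28753194-28753493: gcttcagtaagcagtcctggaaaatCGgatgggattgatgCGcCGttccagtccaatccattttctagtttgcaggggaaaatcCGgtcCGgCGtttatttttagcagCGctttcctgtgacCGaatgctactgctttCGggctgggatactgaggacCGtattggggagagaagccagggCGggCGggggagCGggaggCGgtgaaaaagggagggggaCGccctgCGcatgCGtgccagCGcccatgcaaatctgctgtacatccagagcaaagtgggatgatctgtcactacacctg
Fgf12 proximal start, chr16:28446026-28446325: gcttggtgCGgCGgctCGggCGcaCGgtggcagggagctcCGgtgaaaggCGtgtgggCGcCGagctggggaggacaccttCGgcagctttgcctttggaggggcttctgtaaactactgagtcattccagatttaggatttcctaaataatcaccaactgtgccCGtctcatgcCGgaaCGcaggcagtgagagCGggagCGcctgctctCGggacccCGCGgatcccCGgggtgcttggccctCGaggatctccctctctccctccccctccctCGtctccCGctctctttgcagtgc
The distal window held 18 CG and the proximal window 22 CG, against a median of 7 over 32851 RefSeq promoter windows of mouse genes. A window with at least 18 CG was found in 29.7% of those promoters, and one with at least 22 in 23.1%. Both Fgf12 windows thus held more CG than the median promoter, and the counts do not say which start was used.

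The libraries held 38546292 to 80538090 unique molecular identifiers (UMIs) each and gave 98041 nuclei after filters, from 3417 to 11119 per mouse, with a median of 3688 to 11195 UMIs per nucleus. Clusters were named from marker genes and are written as X-like. They covered 81775 nuclei (83.4%) in 13 classes, of which 10 had enough nuclei in every group to be tested. In the 4 libraries numbered 1, few nuclei were oligodendrocyte-like (47 to 183, against 624 to 1653 in the other libraries). Each library shared 102 to 317 of its cell barcodes with other libraries. Nothing in the labels says that mice of a group came from separate cages or days, so p-values measure the spread between these mice.

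The 4 genes were spread over the cell classes in 4 different ways. Levels are UMIs of the gene scaled to the UMIs of the class as counts-per-million (CPM), as mean ± SD over mice. Neighbours in an order of levels are said to differ beyond the spread where their difference exceeded the square root of their summed squared SDs. Among the named classes, Fgf14 was highest in granule-like and CA3-like neurons and Fgf12 had its highest level in inhibitory-like neurons. Fgf13 was highest in microglia-like nuclei and inhibitory-like neurons, and Fgf11 was rare everywhere. Unnamed clusters are left out of these orders.

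**Figure D1:**
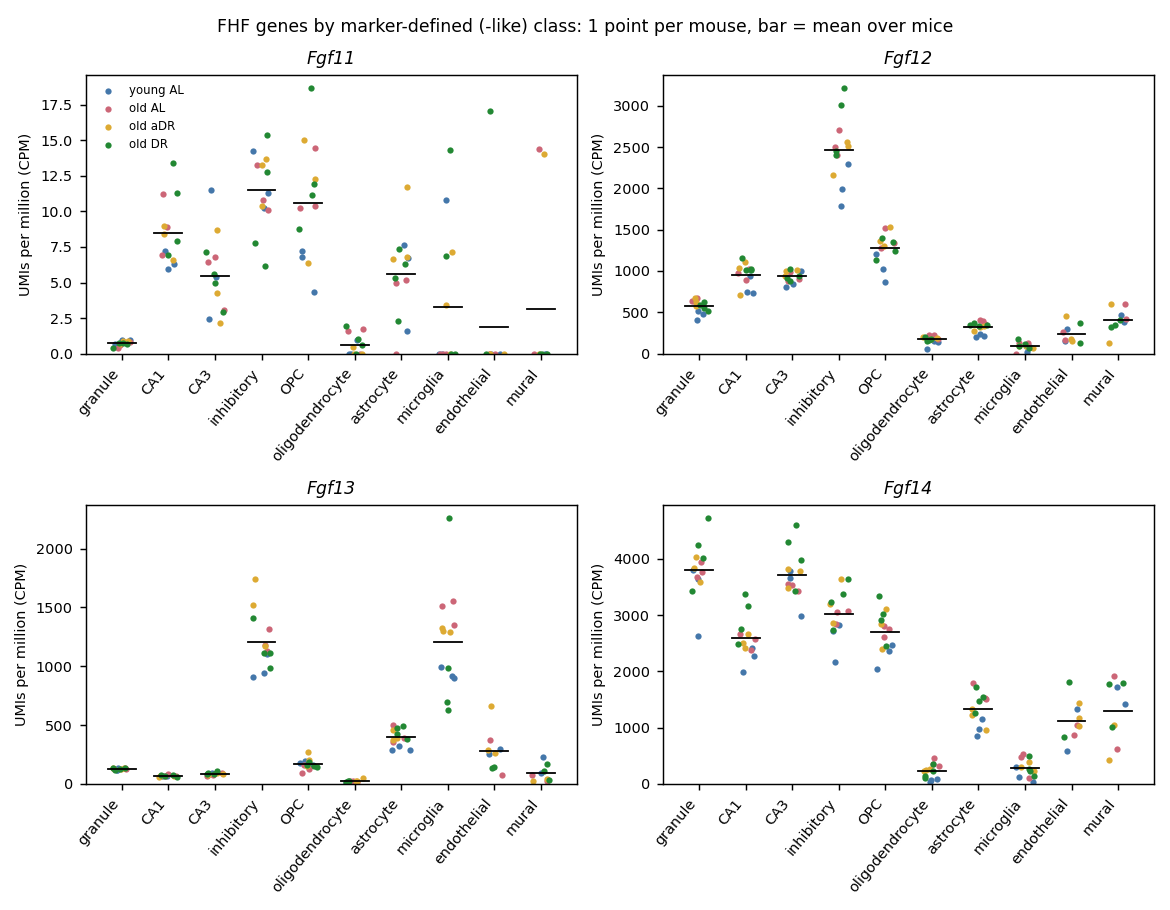
Level of each gene (vertical axis, CPM) in the 10 tested marker-defined classes (horizontal axis). Each point is 1 mouse coloured by group and each bar is the mean over mice, and Fgf12 in inhibitory-like neurons stands above every other class while Fgf13 is highest in 2 unlike classes, microglia-like and inhibitory-like.

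Fgf12 was highest in inhibitory-like neurons, the GABA-releasing cells. Its level was 2462 ± 380 CPM in inhibitory-like neurons (n = 13 mice, range 1791 to 3216), 1274 ± 186 in oligodendrocyte precursor-like nuclei and 950 ± 142 in CA1 pyramidal-like neurons. No mouse's oligodendrocyte precursor-like value reached the lowest inhibitory-like value. CA3 pyramidal-like neurons followed with 935 ± 70.6 CPM, a difference from CA1 within the spread. Granule-like neurons of the dentate gyrus had 577 ± 79.3 CPM, and the lowest levels among the 10 tested classes were in oligodendrocyte-like (171 ± 44.1) and microglia-like nuclei (89.7 ± 45.6). Nuclei with at least 1000 UMIs were thinned to 1000, and nuclei with fewer were left out of these shares. Among the thinned nuclei, 79.4% of inhibitory-like nuclei had an Fgf12 UMI, against 41.6% of granule-like and 8.6% of microglia-like nuclei. Without thinning, over all nuclei of each class, the shares were 98.4%, 91.4% and 11.7%, at median depths of 8288, 6371 and 1408 UMIs.

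Fgf14 was highest where Fgf12 was lowest among these neurons. Granule-like neurons had 3797 ± 479 CPM (range 2636 to 4727) and CA3-like neurons 3719 ± 411, which did not differ beyond the spread between mice. Inhibitory-like neurons, at 3029 ± 406, lay below both, and CA1-like neurons had 2590 ± 361. Oligodendrocyte precursor-like nuclei, which are glial progenitors that carry sodium channels, had 2700 ± 357 CPM and ranked between these neurons. The lowest levels among the tested classes were in microglia-like (279 ± 157) and oligodendrocyte-like nuclei (224 ± 130). Among nuclei thinned to 1000 UMIs, 95.8% of granule-like, 60.3% of astrocyte-like and 21.4% of oligodendrocyte-like nuclei had an Fgf14 UMI.

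Fgf13, which lies on the X chromosome, was high in 2 unlike classes. Microglia-like nuclei had 1208 ± 432 CPM (range 627 to 2260) and inhibitory-like neurons 1204 ± 238 (913 to 1744). Astrocyte-like nuclei followed with 395 ± 71.3, and no astrocyte-like value overlapped the inhibitory-like values. The excitatory neurons were low, with 128 ± 6.22 CPM in granule-like and 68.2 ± 7.35 in CA1-like neurons, and oligodendrocyte-like nuclei had 22.1 ± 10.2. After thinning to 1000 UMIs, 45.7% of inhibitory-like and 42.8% of microglia-like nuclei had an Fgf13 UMI, against 2.3% of oligodendrocyte-like nuclei.

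Fgf11, the one short gene, gave few counts. Its highest well-covered level among the named classes was 11.5 ± 2.64 CPM in inhibitory-like neurons, from 521 UMIs over all mice. Unnamed cluster 21, with 820 nuclei, had a higher mean over its nuclei, 17.7 CPM. CA1-like neurons had 8.47 ± 2.27 CPM from 867 UMIs, and granule-like neurons 0.72 ± 0.18 from 198 UMIs. Among thinned nuclei, at most 1.1% of any class had an Fgf11 UMI. No neighbouring pair of classes in the order of Fgf11 levels differed beyond the spread. That order passes through sparse classes with wide spread, such as fibroblast-like nuclei (11.9 ± 20.0 CPM). Among well-covered classes, granule-like values (0.39 to 0.97 CPM) lay below all CA1-like (5.96 to 13.4) and inhibitory-like values (6.14 to 15.4). Because a nuclear count can grow with gene length, levels of different genes were set side by side per 100 kb of gene span. On that scale inhibitory-like neurons had 415 CPM per 100 kb for Fgf12, 238 for Fgf13, 433 for Fgf14 and 199 for Fgf11. Granule-like neurons had 97.4 for Fgf12, 25.3 for Fgf13, 543 for Fgf14 and 12.5 for Fgf11. Per length, Fgf12 and Fgf14 were thus near each other in inhibitory-like neurons and far apart in granule-like neurons, and Fgf11 was less rare than its raw counts.

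RNA from neurons can reach other droplets, so each level in non-neuronal classes was set beside the summed level of 8 neuron marker genes (Rbfox3, Snap25, Syt1, Grin1, Camk2a, Slc17a7, Celf4 and Nrgn), both as a percent of the granule-like level. All 8 markers had UMIs in every class, and none was at 0. Granule-like neurons had 577 CPM of Fgf12 and 128 of Fgf13, against 2462 and 1204 in inhibitory-like neurons. Percents of the inhibitory-like level would thus be lower for these genes. In oligodendrocyte-like nuclei the markers stood at 8.03%, Fgf14 at 5.89%, Fgf13 at 17.2% and Fgf12 at 29.6%. Fgf14 was thus below the markers there, and also in microglia-like nuclei, where the markers stood at 10.6% and Fgf14 at 7.36%. In oligodendrocyte precursor-like nuclei the markers stood at 11.5%, Fgf14 at 71.1%, Fgf12 at 221% and Fgf13 at 130%. In astrocyte-like nuclei the markers stood at 6.88%, and Fgf14, Fgf12 and Fgf13 at 35.0%, 55.4% and 308%. Microglia-like nuclei had Fgf13 at 943% of the granule-like level and Fgf12 at 15.5%. As percents of the granule-like level, the levels in precursor-like and astrocyte-like nuclei and Fgf13 in microglia-like nuclei were several times the marker level. Given this reference, Fgf12 and Fgf13 in oligodendrocyte-like nuclei are not read as exceeding neuronal RNA. Macrophage-like nuclei, with the markers at 64.9%, Fgf14 at 63.9% and Fgf12 at 105%, held much neuronal RNA and are not described further.

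**Figure D2:**
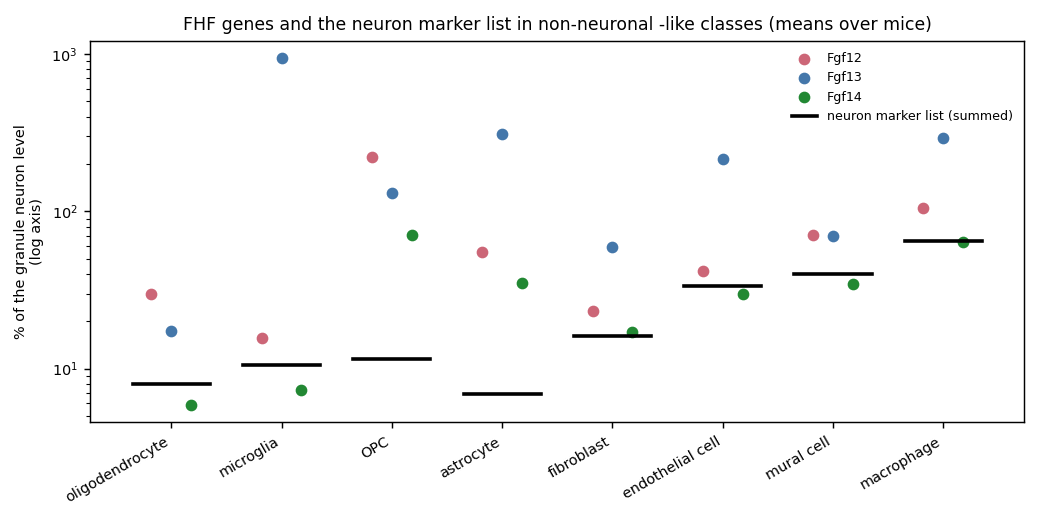
Mean level of Fgf12, Fgf13 and Fgf14 in 8 non-neuronal classes as a percent of their level in granule-like neurons (vertical log axis), with a black bar for the summed neuron markers on the same scale. Points far above the bar, such as Fgf13 in microglia-like nuclei at 943% against 10.6%, exceed the neuron marker level, whereas Fgf14 in oligodendrocyte-like nuclei (5.89% against 8.03%) does not.

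Inhibitory neurons are a mixture of types with different firing patterns, and levels of the FHF genes differed between their sub-clusters. The inhibitory-like nuclei were clustered again into 12 sub-clusters, named where marker genes allowed. Of the members, Fgf13 alone was among the variable genes used to cluster all nuclei. The sub-clusters used variable genes chosen anew among inhibitory-like nuclei, and whether any member was among these is not given here. A member could thus have helped to form the sub-clusters, so its separation between them is description only. Fgf12 was highest in sub-cluster 0, which stayed unnamed and was led by 6330411D24Rik and Iqgap2, with 4445 ± 475 CPM (12 mice with at least 20 nuclei). Sst-like sub-cluster 2 had 2950 ± 344, Cck-like sub-cluster 3 had 2345 ± 309 and Vip-like sub-cluster 1 had 2019 ± 216. Fgf12 was lowest in Lamp5-like sub-cluster 6 (628 ± 118) and in unnamed sub-cluster 4 (749 ± 86.7), whose leading genes include Vcan, Hapln1 and Lamp5. The highest mouse of either low sub-cluster, at 914 CPM, was below the lowest mouse of sub-clusters 0, 1, 2 and 3, at 1501 CPM.

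Fgf13 showed the reverse. It had 3797 ± 392 CPM in Lamp5-like sub-cluster 6 and 3358 ± 537 in sub-cluster 4, against 557 ± 48.1 in sub-cluster 0, 477 ± 74.8 in Vip-like, 671 ± 130 in Cck-like and 223 ± 55.3 in Sst-like sub-cluster 2. No mouse overlapped between sub-clusters 4 and 6 (2577 CPM or more) and sub-clusters 0, 1, 2 and 3 (836 CPM or less). Fgf14 varied less and was again highest in the Fgf13-rich pair, with 4339 ± 452 CPM in sub-cluster 6 and 3900 ± 370 in sub-cluster 4, against 2433 ± 221 in sub-cluster 0. Pvalb-like sub-cluster 8 was the exception to this reversal. Its name rests on 5 of 8 listed Pvalb genes raised, with 0 of them among its leading genes. The best list of the larger, unnamed sub-cluster 0 was also Pvalb (4 of 8 raised, median log2 fold 0.97). Sub-cluster 8 is therefore not read as Pvalb neurons in general. The 161 nuclei of sub-cluster 8 reached 20 in 1 mouse under long-term and 1 under acute restriction. There Fgf12 had 3705 and 2927 CPM, Fgf13 had 4351 and 2610 and Fgf14 had 1827 and 1859, so all rest on 2 mice. Sub-cluster 5, in which 63.4% of barcodes had scored as doublets before removal, is plotted but not described. The inhibitory-like mean of Fgf13 was therefore carried mainly by a minority of nuclei. Sub-clusters 4 and 6 together made up 17.6% to 27.8% of inhibitory-like nuclei per mouse, and this share overlapped between all groups (19.6% to 23.9% in young AL, 17.6% to 25.2% in old AL and 17.7% to 21.7% under long-term restriction, with the highest share, 27.8%, under acute restriction).

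**Figure D3:**
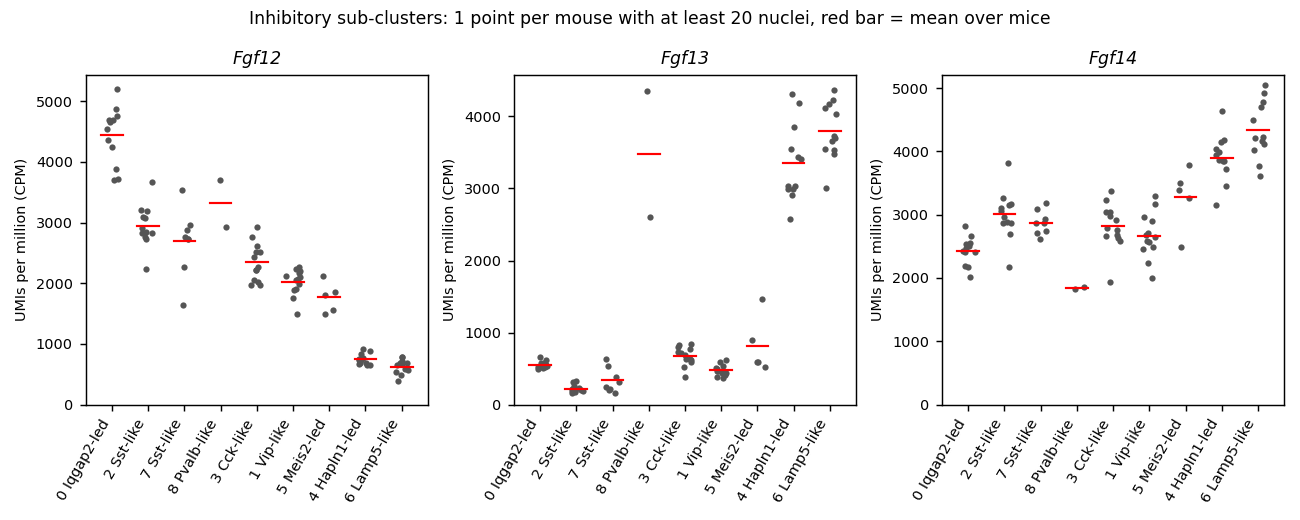
Levels of Fgf12, Fgf13 and Fgf14 (CPM) in 9 sub-clusters of inhibitory-like nuclei, with 1 point per mouse that had at least 20 nuclei and a red bar for the mean over those mice. Fgf12 is lowest and Fgf13 high in sub-clusters 4 and 6, Fgf12 is highest in sub-cluster 0, and Pvalb-like sub-cluster 8 (2 mice) is high for both.

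Within the named excitatory classes, clusters were less divided for Fgf12 and Fgf14. The 4 granule-like clusters lay close together for Fgf12, with mean levels of 539 to 603 CPM, and for Fgf14, with 3350 to 4273. The 2 CA1-like clusters differed more, with Fgf12 at 702 ± 74.5 CPM in one (range 549 to 817) and 1277 ± 158 in the other (1021 to 1502), without overlap between mice. Their Fgf14 levels were 2216 ± 351 and 3107 ± 302.

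A ratio of 2 members within a library does not depend on library scaling. It is not corrected for gene length, so each ratio is compared here only with itself between classes or groups. The ratio of Fgf12 to Fgf14 had a median over mice of 0.154 in granule-like neurons (range 0.127 to 0.174), 0.265 in CA3-like, 0.366 in CA1-like and 0.825 in inhibitory-like neurons (0.593 to 0.995). It was 0.240 in astrocyte-like and 0.462 in oligodendrocyte precursor-like nuclei. The ratio of Fgf13 to Fgf14 was 0.034 in granule-like neurons, 0.390 in inhibitory-like neurons and 4.31 in microglia-like nuclei (1.40 to 13.9). The Fgf12 to Fgf14 range in inhibitory-like neurons lay wholly above that in granule-like neurons.

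The genes whose pattern over the 10 tested classes was most like that of each member were listed by Pearson correlation of the class mean log2(CPM + 1) over 11360 genes that reached 20 CPM in a class. The classes come from the same libraries, so these values describe likeness only. For Fgf12 they were Akap17b and Rims2 (r = 0.98 each), Smarca1 (0.97), and Vps37d and Gm26691 (0.95 each). Rims2 encodes a presynaptic active-zone protein. For Fgf13 they were Gm15614 (0.90), Itga5, Slc38a1 and Scmh1 (0.87 each) and Slc18b1 (0.86). For Fgf14 they were Bmerb1 and Lonrf2 (0.99 each), and Rgs7, 1700024B18Rik and Syn2 (0.98 each), of which 1700024B18Rik lies within Fgf14 on the other strand. Fgf12 correlated with Fgf14 at 0.86 and with Fgf13 at 0.02, so the members' own patterns were not the nearest to each other. Fgf11 did not reach 20 CPM in any tested class and was not compared.

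Fgf12 was higher in old AL than in young AL mice in 9 of 10 classes, as a description of the contrast in which it had been noticed. In astrocyte-like nuclei, young AL mice had 240, 205 and 219 CPM and old AL mice 403, 363 and 400, a log2 difference of 0.81 ± 0.12 (SE). In granule-like neurons they had 484, 405 and 521 against 670, 633 and 637 CPM, a log2 difference of 0.46 ± 0.11. Every old AL mouse was above every young AL mouse in both classes. The neuron markers in granule-like neurons were apart in the same way, with 4885 to 6420 CPM in young AL and 7146 to 7571 in old AL mice. In oligodendrocyte precursor-like nuclei the values were 1026, 864 and 1200 against 1516, 1338 and 1281 CPM, and in inhibitory-like neurons 2296, 1791 and 1991 against 2709, 2504 and 2406. Their log2 differences were 0.41 ± 0.12 and 0.32 ± 0.13. The precursor-like values did not overlap. The inhibitory-like values overlapped before TMM scaling (2442, 1949 and 2050 against 2632, 2489 and 2406 CPM), and the neuron markers there had 4698 to 5716 CPM in young AL and 6340 to 6732 in old AL mice. In oligodendrocyte-like nuclei young AL had 50.9, 141 and 151 CPM and old AL 175, 220 and 220, a log2 difference of 0.63 ± 0.17. The neuron markers in these nuclei were also apart, with 407, 447 and 411 CPM in young AL and 702, 816 and 628 in old AL mice, and their part in the Fgf12 difference was not tested. CA1-like neurons (934, 747 and 737 against 1024, 892 and 973 CPM) and CA3-like neurons (848, 801 and 1004 against 990, 884 and 907) overlapped, at 0.25 ± 0.16 and 0.06 ± 0.13. Within single clusters, the 4 granule-like clusters had log2 differences of 0.30 to 0.43. Within inhibitory sub-clusters, Fgf12 had 2000 ± 52.6 CPM in young AL and 2631 ± 123 in old AL mice in Cck-like, 1713 ± 194 and 2159 ± 56.9 in Vip-like, and 2601 ± 318 and 3164 ± 68.2 in Sst-like sub-cluster 2, each without overlap between the 3 young AL and 3 old AL mice. In sub-clusters 0, 4 and 6 the ages overlapped, with 3704 to 4551 CPM in young AL and 4239 to 4692 in old AL mice, 660 to 689 and 654 to 879, and 386 to 587 and 534 to 783. The age groups were thus apart in some sub-clusters and not in others, and the difference between sub-clusters was not tested. Overlap did not mean level means: sub-cluster 6 had 515 ± 112 CPM in young AL and 678 ± 129 in old AL mice. No background share of non-overlap is given for sub-clusters.

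Fgf14 was apart between the ages in oligodendrocyte-like, precursor-like and astrocyte-like nuclei. In oligodendrocyte-like nuclei young AL mice had 30.5, 71.1 and 94.8 CPM, from 3, 64 and 98 UMIs, and old AL mice 465, 349 and 327 CPM, from 175, 1194 and 833 UMIs. The log2 difference was 2.25 ± 0.44, and the groups were far apart. The part of the higher neuron markers of the old AL mice, given above, was likewise not tested. Within the library, the log2 ratio of Fgf12 to Fgf14 in oligodendrocyte-like nuclei was 0.67 to 0.99 in young AL and -1.41 to -0.57 in old AL mice, without overlap. In astrocyte-like nuclei Fgf14 had 1150, 984 and 846 CPM in young AL and 1502, 1525 and 1787 in old AL mice, a log2 difference of 0.68 ± 0.15, while the neuron markers overlapped (358 to 729 against 500 to 645 CPM). Fgf14 in granule-like neurons (3812, 2636 and 3643 against 3939, 3674 and 3762 CPM) overlapped between ages, with a log2 difference of 0.17 ± 0.14. In inhibitory-like neurons the values were 2718, 2171 and 2820 against 3048, 2849 and 3069 CPM, apart after TMM scaling and overlapping before it (2890, 2363 and 2904 against 2961, 2832 and 3069 CPM).

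Fgf13 in microglia-like nuclei had 902, 920 and 991 CPM in young AL and 1550, 1353 and 1510 in old AL mice, with no overlap and a log2 difference of 0.61 ± 0.43. In astrocyte-like nuclei it had 290, 288 and 320 against 501, 389 and 357 CPM, a log2 difference of 0.49 ± 0.14, and in granule-like neurons it was level, at 120, 117 and 132 against 130, 127 and 132. In oligodendrocyte precursor-like nuclei Fgf13 was lower with age, at 192, 157 and 174 against 96.5, 157 and 130 CPM. The groups overlapped there, with a log2 difference of -0.44 ± 0.19. Over the 10 classes the log2 difference of Fgf13 was positive in 6 and negative in 4. Fgf11 passed the filter on low counts in 6 classes, with log2 differences from -0.58 in granule-like neurons to 0.90 in oligodendrocyte precursor-like nuclei.

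Fgf12, Fgf13 and Fgf14 passed that filter in all 10 classes, which gives 36 pairs of a gene and a class. For ageing, edgeR called 5 of the 36 at a Benjamini-Hochberg adjusted p under 0.05 within the class, all higher in old AL mice: Fgf12 in astrocyte-like, granule-like and oligodendrocyte-like nuclei, and Fgf14 in astrocyte-like and oligodendrocyte-like nuclei. Of all pairs tested, 1.8% were called in either direction and 1.04% higher. The old AL range lay above the young AL range in 14 pairs (12.9% of all pairs) and below it in 1 (9.21%), on TMM-scaled levels. Before scaling, Fgf12, Fgf13 and Fgf14 in inhibitory-like neurons overlapped. These counts are given beside their background only, since the proposal used this contrast. Depth differed with age in the same direction: median UMIs per nucleus were 1630 to 2546 in young AL and 2854.5 to 5024.5 in old AL astrocyte-like nuclei, and 3879 to 6557 against 7084 to 12794 in granule-like neurons. Neither overlapped, so depth and age cannot be told apart. With depth as a covariate none of the 36 pairs was called, and the log2 differences of Fgf12 were 0.78 in astrocyte-like and 0.24 in granule-like nuclei. With each library's trend of level on gene length removed, 1 pair was called, Fgf14 in oligodendrocyte-like nuclei (1.54), and Fgf12 had 0.33 in astrocyte-like, 0.11 in granule-like neurons and -0.035 in oligodendrocyte-like nuclei. Removing the trend thus lowered each of these differences.

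**Figure D4:**
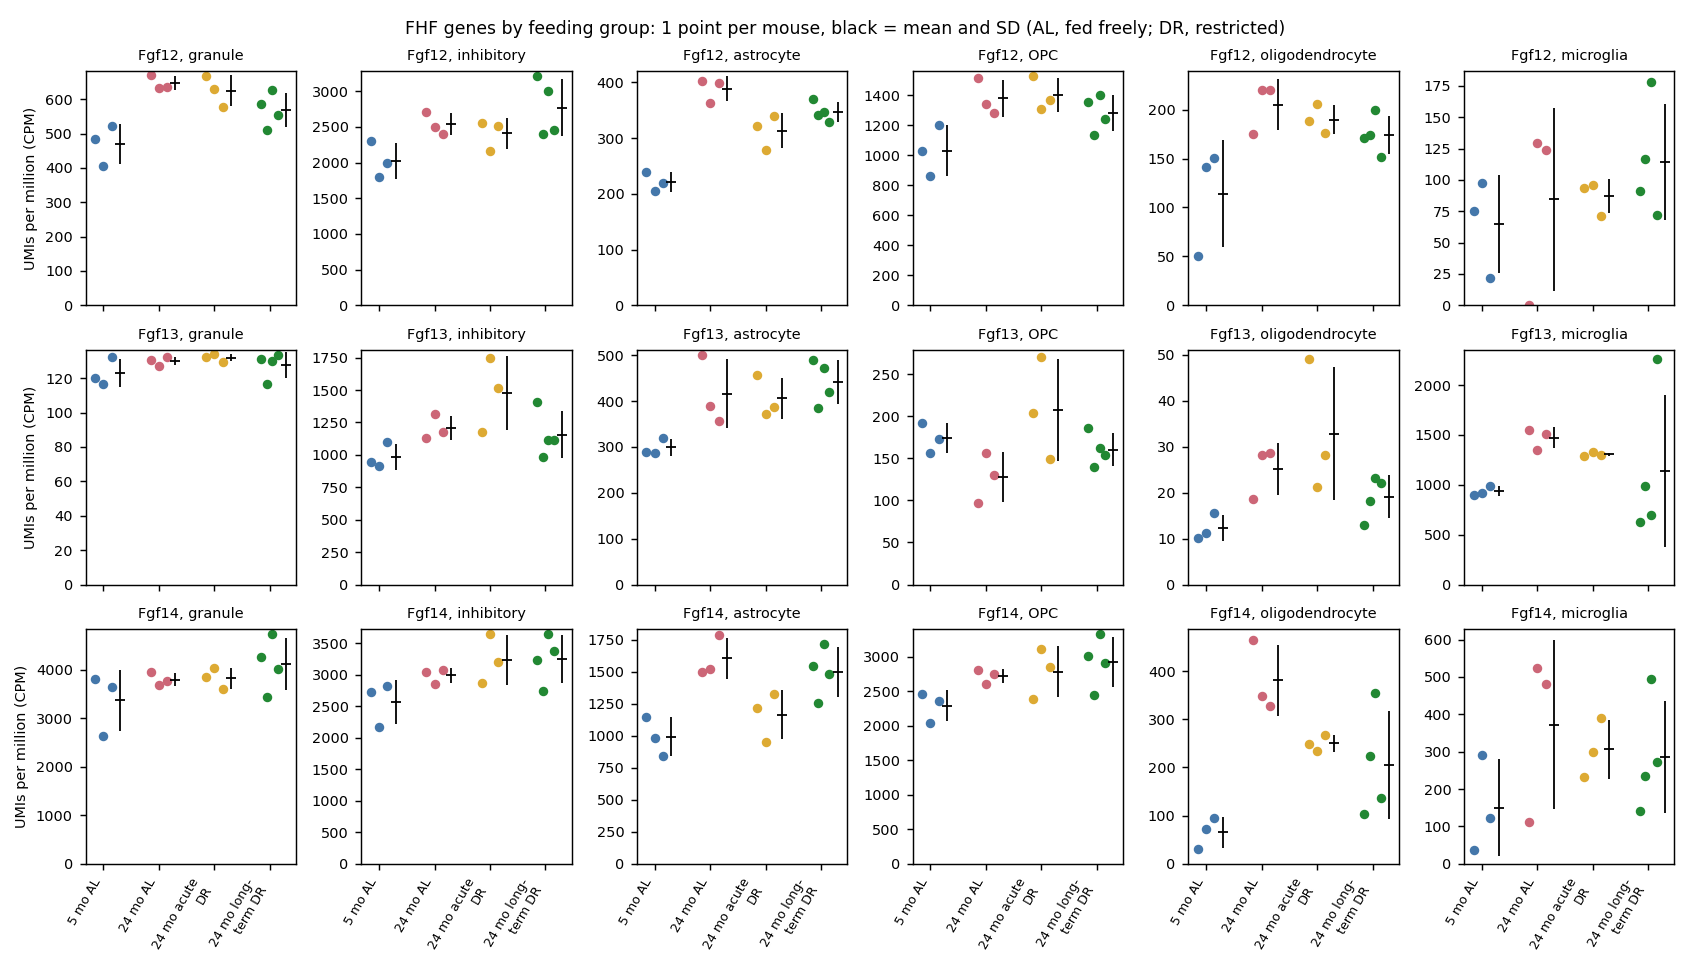
Levels of Fgf12, Fgf13 and Fgf14 (CPM) in 6 marker-defined classes by feeding group, with 1 point per mouse and the mean and SD in black. Old AL mice lie above young AL mice for Fgf12 in the granule-like and astrocyte-like panels and for Fgf14 in the oligodendrocyte-like panel, where the restricted groups lie between 103 and 355 CPM.

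Under restriction, no member passed the main test in any class, which fitted all 4 groups together after the low-count filter, without a replicate block. Both restriction contrasts share the 3 old AL mice with the ageing contrast and with each other, so a difference opposite to that of age is not separate evidence. For long-term restriction, edgeR called 0 of 36 pairs, against 0.0596% of all pairs, and DESeq2 also called 0. At an unadjusted p under 0.05, 1 of 36 pairs passed, against 4.96% of all pairs. For acute restriction, edgeR called 0 of 36 (0.26% of all pairs) and DESeq2 called 0, and 3 of 36 passed unadjusted (5.21%). Between the schedules, edgeR and DESeq2 called 0 (0.0154% of all pairs), and 3 passed unadjusted (2.99%). These misses do not show that the levels were alike, and the errors below show how wide the tests were.

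Fgf14 in oligodendrocyte-like nuclei had 465, 349 and 327 CPM in old AL mice, 249, 233 and 268 under acute and 103, 224, 355 and 137 under long-term restriction. All 3 acute mice were below all old AL mice, and the long-term mice spread from below to within the old AL range. Median UMIs per nucleus in these sums were 1577 to 1889 under acute restriction, 1673 to 2299.5 under long-term restriction and 1988 to 3169 in old AL mice, and the part of depth was not tested apart from the covariate fit, in which no pair was called. The log2 difference from old AL was -0.58 ± 0.37 for acute (edgeR adjusted p = 0.656) and -0.79 ± 0.34 for long-term restriction (adjusted p = 0.494). With old AL and acute mice alone in the fit, the acute difference was -0.55, with an edgeR adjusted p of 0.0150. Without long-term mouse 3, the highest of its group, the long-term difference was -1.15, with an edgeR adjusted p of 0.0144. Leaving out the highest mouse lowers its group by construction, so nothing is read from that p. That mouse also had the highest neuron marker level of its group, 859 CPM, against 447, 644 and 365 CPM in mice 1, 2 and 4, in the same order as Fgf14 except that mice 1 and 4 changed places. The part of neuronal RNA in this spread was not tested.

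In astrocyte-like nuclei Fgf14 and Fgf12 lay lower under acute restriction without passing the test, while Fgf13 overlapped. Fgf14 had 1502, 1525 and 1787 CPM in old AL, 1219, 952 and 1323 under acute and 1544, 1253, 1719 and 1481 under long-term restriction. The acute mice lay below all old AL mice, by a log2 difference of -0.46 ± 0.15 (edgeR adjusted p = 0.474), and the long-term mice overlapped old AL. Long-term minus acute restriction was 0.36 ± 0.14 in log2, with an edgeR adjusted p of 1.00. Fgf12 in the same nuclei had 403, 363 and 400 CPM in old AL and 322, 278 and 340 under acute restriction, again without overlap, a log2 difference of -0.31 ± 0.12 (edgeR adjusted p = 0.644). Fgf11, from 0 to 19 UMIs per mouse in these groups, lay higher without overlap (4.96, 5.20 and 0 CPM in old AL, 11.7, 6.62 and 6.82 under acute restriction) and did not pass either. Fgf13 had 501, 389 and 357 CPM in old AL and 457, 373 and 388 under acute restriction. Its log2 difference was -0.055 ± 0.138. The neuron markers in these nuclei overlapped between the groups (500 to 645 CPM in old AL and 493 to 645 under acute restriction). Median UMIs per nucleus were 2854.5 to 5024.5 in old AL mice and 2279 to 3073 under acute restriction. The part of depth was not tested apart from the covariate fit, in which no pair was called.

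Fgf12 in granule-like neurons had 670, 633 and 637 CPM in old AL, 668, 629 and 579 under acute and 586, 511, 628 and 553 under long-term restriction. The 4 long-term mice lay below the 3 old AL mice, with a log2 difference of -0.18 ± 0.10 that did not pass the test. Within the library, the log2 ratio of Fgf12 to Fgf14 in these neurons was -2.56 to -2.54 in old AL, -2.91 to -2.75 under long-term, -2.68 to -2.52 under acute restriction and -2.98 to -2.70 in young AL mice. In this ratio the long-term mice lay below every old AL mouse and the acute mice overlapped old AL. The ratio uses the same Fgf12 counts as the levels above, so it is not separate support. Its other part, Fgf14, had a long-term log2 difference of 0.12 ± 0.14 in these neurons.

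Fgf13 in oligodendrocyte precursor-like nuclei had the smallest adjusted p of any restriction pair. It had 96.5, 157 and 130 CPM in old AL and 204, 271 and 149 under acute restriction, a log2 difference of 0.66 ± 0.18 (edgeR adjusted p = 0.251, and 0.0253 without the low-count filter), with overlap of the groups. Young AL mice had 157 to 192 CPM in these nuclei. In microglia-like nuclei Fgf13 had 1550, 1353 and 1510 CPM in old AL, 1292, 1326 and 1296 under acute and 627, 989, 693 and 2260 under long-term restriction. Of the long-term mice, 3 were below every old AL mouse and mouse 4 was above all of them. The long-term difference was -0.36 ± 0.37 in log2 (edgeR adjusted p = 0.951). Each library was left out in turn, and without mouse 4 the difference was -0.90, with an edgeR adjusted p of 0.0127. Leaving out the highest mouse lowers its group by construction, so nothing is read from that p. Of 761 alternative values for long-term restriction over all members and classes, 3 were called. The sum of mouse 4 held 315 Fgf13 UMIs from 86 nuclei, and what set it apart was not tested. On TMM-scaled levels, groups did not overlap in 0 pairs upward and 2 downward for long-term restriction (3.79% and 3.88% of all pairs) and in 1 upward and 4 downward for acute restriction (6.01% and 6.76%). For long-term minus acute restriction they did not overlap in 0 pairs upward and 1 downward (2.64% and 2.22%). That pair was Fgf13 in endothelial-like nuclei, with 142 and 137 CPM in the long-term mice that had enough nuclei (1 and 4) and 262, 664 and 288 under acute restriction, a log2 difference of -1.49 ± 0.55 (edgeR adjusted p = 1.00).

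**Figure D5:**
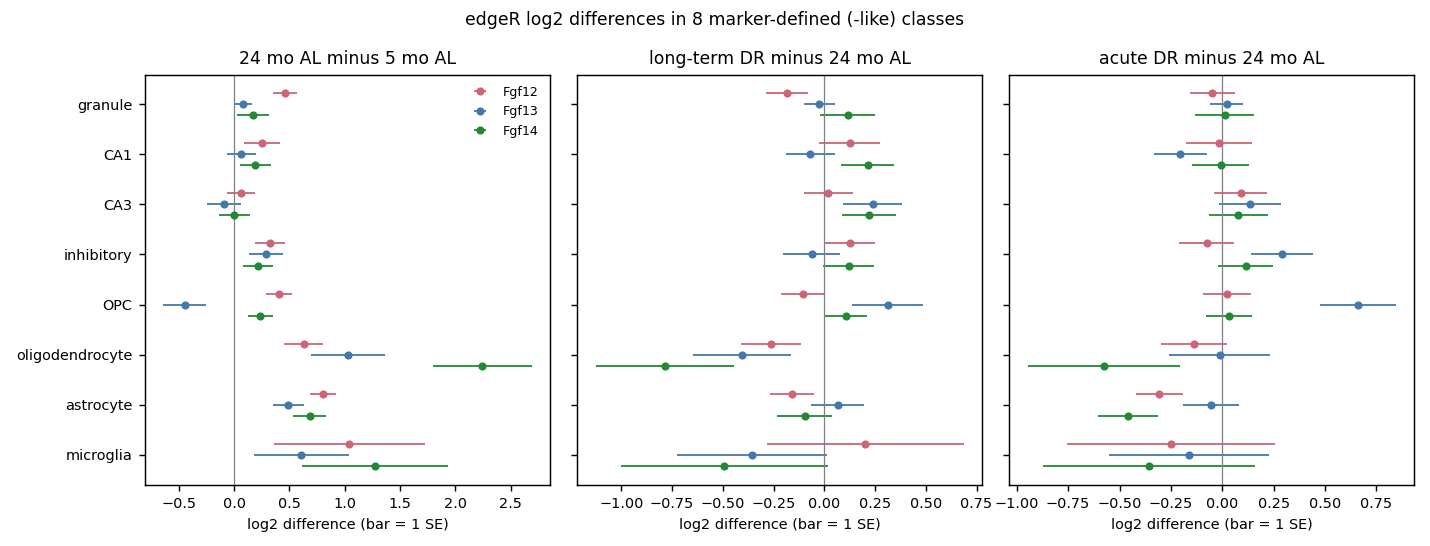
Log2 difference (horizontal axis, bar of 1 SE) of Fgf12, Fgf13 and Fgf14 in 8 marker-defined classes for age, long-term restriction and acute restriction. Under restriction the points lie on both sides of 0, with Fgf14 in oligodendrocyte-like nuclei at -0.79 and -0.58, and none passed the adjusted test.

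Genes that work with FHFs were taken from lists of known partners. Of the sodium channel alpha subunits, 7 of 10 passed the filter somewhere, giving 44 pairs, and edgeR called 0 of them in any of the 4 contrasts. For age, 1.8% of all pairs were called, so 0 calls in a short list are not read as a result. The median log2 difference with age was 0.25, against -0.02 over all pairs. The 4 beta subunits gave 22 pairs and 0 calls, with a median of -0.20 for age. Of the axon initial segment genes, 4 of 61 pairs were called for age, all higher in old AL mice, against 1.04% of all pairs called higher. They included the potassium channel subunit Kcnq3 in granule-like (0.63 ± 0.12) and oligodendrocyte-like nuclei (0.49 ± 0.15), and the adhesion molecule Nrcam in oligodendrocyte-like nuclei (1.00 ± 0.25). The scaffolds Ank3 and Sptbn4 were not called. Among other binding partners, the calcium channel subunits Cacna1b in granule-like neurons (0.41 ± 0.10) and Cacna1e in oligodendrocyte-like nuclei (1.37 ± 0.27) were called higher, 2 of 41 pairs. In oligodendrocyte-like nuclei Nrcam had 61.6 CPM and Cacna1e 57.2, against 793 and 1330 in granule-like neurons, and the neuron markers there were also higher in old AL mice (628 to 816 against 407 to 447 CPM). Their part in these calls was not tested. Kcnq3 had 1489 CPM in oligodendrocyte-like nuclei and 1086 in granule-like neurons. All of these age calls fell in classes whose median UMIs per nucleus did not overlap between the ages. Granule-like neurons had 3879 to 6557 in young AL and 7084 to 12794 in old AL mice. Depth was also apart for oligodendrocyte-like nuclei (1182 to 1661 against 1988 to 3169). Fits with depth as a covariate or the length trend removed are given for the members only. The part of depth in the calls of partner genes was not tested. Secreted fibroblast growth factors (10 of 18 genes tested, 39 pairs) and their receptors (30 pairs) had 0 calls for age. Under restriction the only call in all lists was Fgf1, a secreted growth factor, in oligodendrocyte-like nuclei under acute restriction, at 0.63 ± 0.17 (edgeR adjusted p = 0.0442). It was 1 of 39 pairs of its list, and the other lists had 0 calls. Of all pairs, 0.26% were called for acute restriction, and nothing is read from a single call.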

How the data were processed

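The authors deposited UMI counts per gene and barcode for 13 libraries, made with Cell Ranger 4.0.0 on mm10 per the submitters' processing notes. Per the labels' protocols, nuclei from frozen hippocampus were sorted after Hoechst staining and run on 10x Genomics chemistry. The members, lists and lines of comparison were chosen with earlier results of these data known, and clusters were named by rules set after the clusters had been seen.

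Of 105759 barcodes, 105427 had 500 or more genes and no more than 5% of UMIs from mitochondrial genes, and 7386 with the highest simulated-doublet scores were removed. Clustering used scanpy 1.11.5 with leidenalg 0.10.2. Counts were summed per mouse and class where at least 20 nuclei were present. The sums were fitted over all genes and all mice with edgeR 4.0.16 quasi-likelihood tests in R 4.3.3 (TMM, filterByExpr), with Benjamini-Hochberg adjustment within each class. CPM in tested classes used TMM-scaled totals (factors 0.909 to 1.17), and other CPM were unscaled. The model was tested on simulated data. DESeq2 1.42.0, other filters and covariates, a replicate block and leaving out libraries were alternatives. All members were named, together with list genes called under restriction, at most 4 called with age per list, and the 5 genes most like each member. A called list gene is not reported here. No RefSeq protein was used here. Promoters came from RefSeq (GRCm38.p6), in which all 4 members matched.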

Additional observations from a re-analysis of the deposited data

Results flagged for a closer look

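Fgf12 in CA1-like neurons of the long-term restriction group had 1 mouse far from the others. Mouse 3 had 1154 CPM, while the other mice of the group had 1008 to 1020 CPM, so the gap to its neighbour was 0.917 of the group's range. Before TMM scaling the 4 mice had 958, 1076, 1073 and 1053 CPM in the order of their numbers, and mouse 3 did not stand apart. Of 30 groups of 4 mice examined for the 4 genes, 1 stood out in this way, and chance alone gives about 1 in 20.

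Fgf13 lay apart between the ages, without overlap of mice, on opposite sides in different classes, and no class passed the main test. Oligodendrocyte-like nuclei passed under some alternatives, among them the fit without the low-count filter and the fit of the 2 age groups alone, and astrocyte-like nuclei with libraries numbered 1 as a term. Among all pairs of a gene and a class, 12.9% lay higher and 9.21% lower in old AL mice without overlap. It was higher in old AL mice in astrocyte-like nuclei (log2 difference 0.49), inhibitory-like neurons (0.29, with overlap before TMM scaling), microglia-like nuclei (0.61) and oligodendrocyte-like nuclei (1.03), and lower in mural-like nuclei (-1.59). The difference between these classes was not tested. The mural-like sums with enough nuclei were 2 per age and held 2 to 13 Fgf13 UMIs each.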

How the results depend on the processing

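The ageing contrast called 5 of 36 pairs of a member and a class, against 1.8% of all pairs. Background shares are not given for the alternatives. The count was 8 with libraries numbered 1 as a term, 0 with median UMIs per nucleus as a covariate (smallest edgeR adjusted p = 0.147), 1 with the length trend removed and 0 of 59 pairs with each neuronal cluster fitted alone, a fit in which, of the 5 calls, only that in granule-like neurons could be repeated. Leaving out 1 library gave 1 to 6 calls: 1 without young AL mouse 2, 2 without old AL mouse 2 or 4, and 3 without acute mouse 3, long-term mouse 1 or long-term mouse 4. DESeq2 and the fit with doublets kept gave 4 each. Fgf12 in oligodendrocyte-like nuclei turned to -0.035 with the length trend removed. The cause of these changes was not tested.

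For long-term restriction the count of 0 became 1 with the replicate block (Fgf14 in oligodendrocyte-like nuclei, -1.08, edgeR adjusted p = 0.0137), and 0 to 1 when 1 library was left out. For acute restriction it became 1 without the low-count filter (Fgf13 in oligodendrocyte precursor-like nuclei, 0.64, edgeR adjusted p = 0.0253). It was 1 with the replicate block (Fgf14 in oligodendrocyte-like nuclei, -0.97, edgeR adjusted p = 0.0387). With old AL and acute mice alone it was also 1 (that last pair, -0.55, edgeR adjusted p = 0.0150). Without the 4 libraries numbered 1, Fgf13 in endothelial-like nuclei had a log2 difference of 2.51 for acute restriction. For long-term minus acute restriction it was -1.74. In that fit the young AL, old AL and long-term arms held 1 sample each. Only the acute arm held more, so the spread came from it alone and no call is counted. The labels do not say that equal numbers mark a shared batch. In granule-like neurons, same-numbered libraries deviated together (r above 0.1) in 11 of 16 pairs (median 0.39). Pairs with different numbers did so in 15 of 47 (median -0.15). The 11 pairs were all 6 numbered 1 (median 0.63), 2 of 6 numbered 2, 2 of 3 numbered 3 and the 1 pair numbered 4. Since number 2 deviated together in few pairs, the main fit did not pair the mice, and the replicate block is given as an alternative. The replicate block gave 7 calls for ageing.

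The share of nuclei with a UMI, thinned to 1000 UMIs, depended on depth. Nuclei below the thinning depth were left out, so thinned and unthinned shares do not cover the same nuclei. At 500 UMIs and unthinned it was 0.545% and 9.17% for Fgf11 in inhibitory-like (1.09% at 1000), 61.5% and 98.4% for Fgf12 in inhibitory-like, 81.7% and 99.9% for Fgf14 in granule-like nuclei, and 29.8% at 500 UMIs for Fgf13 in microglia-like nuclei. The highest class mean of each of Fgf12, Fgf13 and Fgf14, and Fgf11 in inhibitory-like neurons, moved by less than its SD over mice when the lowest glial level was subtracted and when counts were pooled over mice. Depth limits Fgf11 and the microglia-like and vascular sums.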

Other observations

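Small unnamed clusters held the extremes of Fgf14. Cluster 33, led by Gabra6 and Fat2, which are genes of cerebellar granule cells, had 41 nuclei, 73.2% of them from 1 mouse under acute restriction (mouse 2), and 11442 CPM of Fgf14 over all its nuclei. Cluster 31 had 177 nuclei, 87.0% from long-term mouse 1, and 5745 CPM of Fgf14. Each came mainly from 1 library, and no group was compared in them. In unnamed clusters of at least 1000 nuclei, Fgf14 means over nuclei ran from 3199 CPM (cluster 18) to 4341 (cluster 13). The granule-like clusters had 3309 to 4208 CPM on the same measure. Among unnamed clusters of at least 1000 nuclei, Fgf12 was highest in cluster 15, at 1916 ± 179 CPM over 13 mice.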
